A study of Homo sapiens with 24 samples.

Results

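The transcripts of 10 AP-1 and immediate early genes, FOS, FOSB, FOSL1, FOSL2, JUN, JUNB, JUND, EGR1, IER2 and IER3, were followed across 24 2-colour arrays of human cancer cell lines. The members were all probes that the array annotation assigns to these symbols, which gave 11 of 42405 probes on the first array design and the same 11 of 50599 probes on the second. IER3 had 2 probes and each other gene had 1. Each array set RNA of treated cells, labelled with Cy5, against RNA of control cells of the same line, labelled with Cy3. A value below is the log2 ratio of treated over control unless another quantity is named.

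The study covered 13 treatments, and each combination of treatment and cell line was measured on 1 array. The first design held 16 arrays on slides 1 and 2. These were genistein in the prostate cancer (PCa) lines PC3 and DU145, siRNA against CAV2 (si-CAV2) in the renal cell carcinoma lines A498 and 786O, miR-145 in PC3, DU145 and the PCa line LNCap, miR-375 in the head and neck squamous cell carcinoma line FaDu, siRNA against LAMB3 (si-LAMB3) and wogonin in FaDu and in SAS, another head and neck squamous line, miR-23b, miR-24 and miR-27b in PC3, and miR-29a in SAS. The second design held 8 arrays on slide 3. These were miR-143 and siRNA against GOLM1 (si-GOLM1) in DU145 and PC3, miR-27b in 786O and A498, and the chemokine CXCL10 in 786O for 12 and 24 hours. Genistein is a soy isoflavone and wogonin a plant flavone. Control cells received a control miRNA or siRNA in the transfections, DMSO beside wogonin, and by the labels no treatment beside genistein and CXCL10, although the study's methods name DMSO as the vehicle control of genistein. All transfections used Lipofectamine RNAiMAX. Each line is an established culture from a single tumour, dyes were not swapped, and no condition was repeated in the same line. A single array therefore has no replicate error and no test, and its values are given with the error of the scanner software, a technical error of the log ratio.

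AP-1 is a pair of basic leucine zipper (bZIP) proteins. Jun proteins pair with each other or with a Fos protein, whereas Fos proteins need a Jun partner, and the pair binds a short palindrome in the control regions of genes for growth, invasion and stress. FOS, FOSB, JUN, JUNB, EGR1, IER2 and IER3 are immediate early genes, whose transcription is switched on by growth factors or stress through MAP kinases without new protein synthesis and whose mRNAs are short-lived. FOSL1 and FOSL2 are usually induced later and are high in many invasive carcinomas, and JUND is made in most resting cells. EGR1 is a zinc-finger transcription factor that serum response factor induces through a sequence called the CArG box.

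The cultures were compared with marker genes of their labelled tissue. All 6 androgen-responsive prostate markers were well above background in the LNCap control, against at most 5 of 6 in any other line, and their mean level was 3.73 log2 units above the 75th percentile of the array in LNCap and -3.40 or lower elsewhere, PC3 and DU145 included. Renal markers averaged from -0.730 to 0.953 in 786O and A498 and -4.20 or lower elsewhere, and squamous markers from 0.292 to 3.37 in FaDu and SAS and -1.17 or lower elsewhere. The gene aimed at was lower on each siRNA array, with log2 ratios of -3.80 in A498 and -3.20 in 786O for CAV2, -3.02 in DU145 and -4.15 in PC3 for GOLM1, and -2.50 in FaDu and -0.89 in SAS for LAMB3. The PC3 controls of slide 3 stood apart from those of slides 1 and 2. VIM, the intermediate filament gene of mesenchymal cells, lay 2.40 and 3.01 log2 units above the 75th percentile there, against 6.04 to 6.77 on the other slides, and CDH1, the epithelial cadherin gene, at 3.60 and 4.14 against -2.35 to -0.56. PC3 was therefore never pooled between the designs, and the identity of the cultures labelled PC3 on slide 3 is in doubt.

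The promoters are printed because some members had high or low ratios on the same arrays. RefSeq (GRCh38.p14) gave a promoter for 8 of the 10 genes, all but FOSL1 and IER3. The 250 bases before the transcription start are shown for EGR1 (chr5:138465229-138465478, plus strand), FOS (chr14:75278578-75278827, plus strand) and JUN (chr1:58784048-58784297, minus strand), which were below -1.0 after si-LAMB3 in both lines, and for JUND (chr19:18281623-18281872, minus strand), which was at -0.41 in FaDu and -0.75 in SAS. Capitals mark the motifs searched on both strands, which were TGACGT, the core of the cyclic AMP response element, TGACNTCA, the full element and its variants, TGANTCA, the AP-1 element, and the CArG box. TGACGT overlaps TGACNTCA where the variable base is G.
EGR1: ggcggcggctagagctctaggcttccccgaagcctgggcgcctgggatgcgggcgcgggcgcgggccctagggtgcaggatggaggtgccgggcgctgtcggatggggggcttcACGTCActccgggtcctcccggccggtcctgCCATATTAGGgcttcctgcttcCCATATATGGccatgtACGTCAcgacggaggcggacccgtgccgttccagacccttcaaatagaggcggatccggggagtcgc
FOS: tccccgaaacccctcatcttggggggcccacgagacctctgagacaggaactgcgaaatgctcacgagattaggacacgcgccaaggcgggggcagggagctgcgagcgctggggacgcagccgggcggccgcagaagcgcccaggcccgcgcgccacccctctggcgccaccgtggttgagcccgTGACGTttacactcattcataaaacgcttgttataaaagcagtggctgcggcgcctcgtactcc
JUN: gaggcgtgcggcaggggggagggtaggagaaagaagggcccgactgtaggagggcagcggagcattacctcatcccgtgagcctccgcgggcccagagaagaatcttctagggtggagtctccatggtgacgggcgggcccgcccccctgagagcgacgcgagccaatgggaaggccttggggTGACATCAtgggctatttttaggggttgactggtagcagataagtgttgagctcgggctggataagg
JUND: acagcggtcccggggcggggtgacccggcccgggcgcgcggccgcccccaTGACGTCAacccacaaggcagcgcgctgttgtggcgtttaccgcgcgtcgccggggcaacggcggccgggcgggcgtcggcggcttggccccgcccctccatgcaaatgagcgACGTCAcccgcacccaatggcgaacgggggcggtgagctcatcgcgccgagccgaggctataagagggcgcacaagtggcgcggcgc
TGACGT was present in 5 of the 8 promoters, FOS, FOSB, FOSL2, JUND and EGR1, against 7.10% of 35116 promoters of this length. Its first base lay 64 bases before the start in FOS, 60 in FOSB, 66 in FOSL2, 136 and 67 in EGR1, and 200, 198 and 87 in JUND. TGACNTCA was held by JUN, 67 bases before the start, and by JUND, 200 bases before it, against 6.87% of all promoters. Of the 8 windows of 250 bases, that of EGR1 alone had the CArG box, at 105 and 83 bases before the start, against 1.16% of all. Sequence further upstream was not searched, so a CArG box there would be missed. TGANTCA was in none of the 8 windows, against 6.57% of all. A match of letters describes the sequence and is not evidence of binding.

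Across the first design the members had a wide spread. A log2 ratio past 1.0 in size was the limit, and a gene was tested on an array where either channel of its probe was flagged well above background. Of 157 tested values of the members, 32 were above 1.0 and 14 below -1.0, which is 29.3% against 11.9% of the values of all named genes. At least 1 member was past the limit on 13 of the 16 arrays, the exceptions being both si-CAV2 arrays and miR-145 in DU145. The SD over the arrays was 2.28 for EGR1, 1.51 for FOS, 1.20 for IER3 and 1.08 for FOSL1, against a median of 0.45 over 11750 genes. IER2, with 0.39, was the 1 member below that median. In 12 of the 32 values above 1.0 the control channel was not well above background, namely all 7 of FOSB, 3 of 5 of FOS and 2 of 4 of EGR1. Such a value passed the filter through the treated channel alone, and a lower bound of its fold is given instead, from the dimmest signals that were well above background. Where the control signal was no dimmer than these, the fold given is that of the ratio itself. All bounds hold for the deposited background correction alone. 

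By array, the count of members past 1.0 in either direction ran from 0 to 6. It was 6 of 10 after miR-145 in LNCap, against 9.09% of all genes there, and 6 of 10 after miR-375 in FaDu, against 23.9%. It was 5 of 10 after si-LAMB3 in SAS (14.3% of all genes), wogonin in SAS (13.0%) and genistein in DU145 (11.3%), 4 of 10 after miR-24 (28.2%), and 3 of 10 after si-LAMB3 in FaDu (9.37%) and miR-145 in PC3 (14.2%). It was 2 of 9 after genistein in PC3 (16.2%), miR-23b (11.0%) and miR-27b in PC3 (13.6%), 2 of 10 after miR-29a (8.92%) and 1 of 10 after wogonin in FaDu (8.54%). On the 3 arrays with none, 2.04%, 1.92% and 4.95% of all genes were past 1.0. These counts include values that passed the filter through the treated channel alone. After miR-23b and miR-27b in PC3 they were FOS and FOSB, so neither array had a member past 1.0 with both channels well above background. After miR-24 they were FOS, FOSB and EGR1. FOSB was such a value after genistein in DU145 and after si-LAMB3, wogonin and miR-29a in SAS, and EGR1 after miR-145 in PC3. Over all arrays JUNB ran from -0.52 after wogonin in SAS to 2.31 after miR-145 in LNCap, FOSL2 from -1.19 after miR-375 to 1.72 after miR-145 in LNCap, and JUND from -1.84 after miR-24 to 1.42 after genistein in PC3. Without the LNCap array 26 values were above 1.0, and without the PC3 arrays 20.

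**Figure D1:**
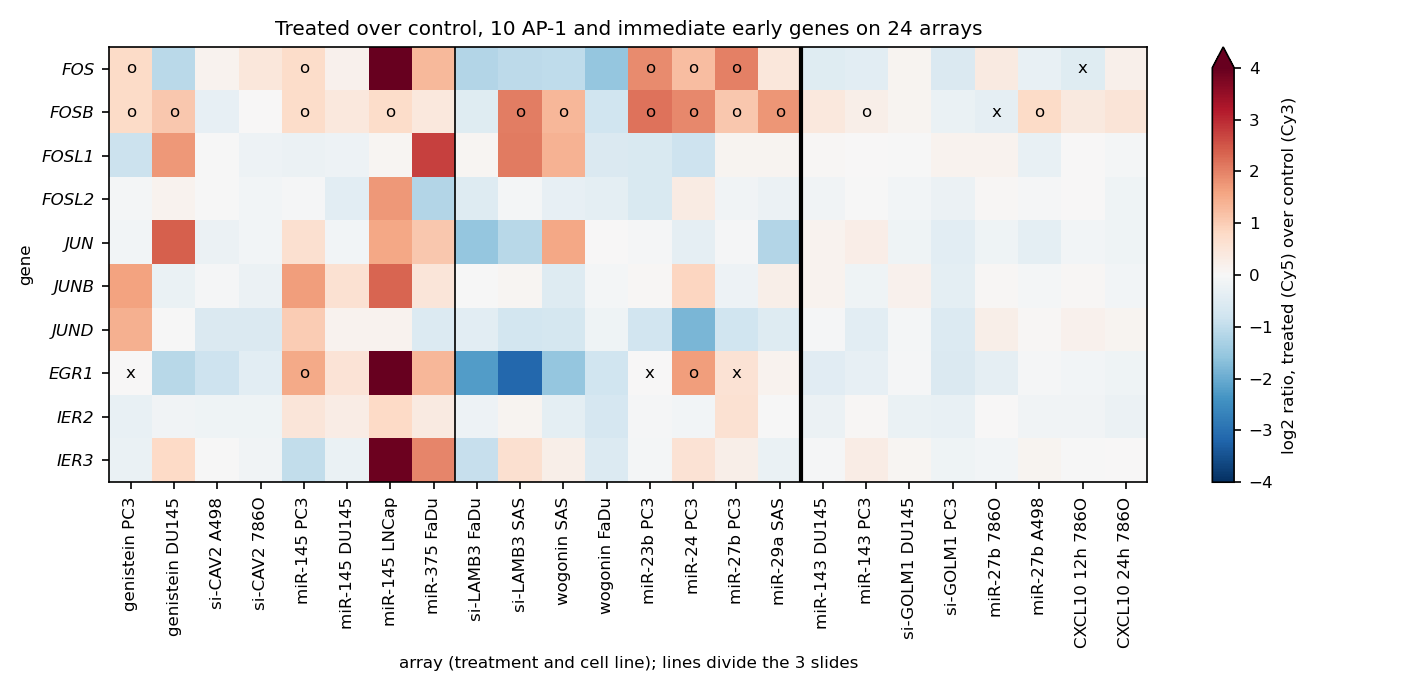
Log2 ratio of treated over control for the 10 genes (rows) on the 24 arrays (columns, divided by slide), with red for higher and blue for lower in treated cells. An o marks a control channel not well above background and an x marks both channels so. The darkest red cells are EGR1, FOS and IER3 after miR-145 in LNCap (5.93, 4.29 and 3.92), and no cell of slide 3 is past 1.0.

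EGR1, FOS and JUN were lower together after si-LAMB3 in both squamous lines. In such cultures less RNA per cell and fewer cells with the RNA cannot be told apart. The EGR1 log2 ratio was -2.24 (software error 0.29) in FaDu and -3.14 (error 0.36) in SAS. FOS, the founding Fos subunit, was at -1.16 and -1.03 in these lines, with an error of 0.23 in both. JUN, the principal Jun subunit, was at -1.56 (error 0.25) and -1.09 (error 0.23). These 3 of 10 members were below -0.5 in both lines, against 8.11% of 13646 genes tested in both, and also below -1.0, against 1.78%. FOS in SAS was close to that limit. With normexp background correction FOS was at -1.01 in FaDu and -0.64 in SAS, and without background correction at -1.08 and -0.73. Below -1.0 in both lines the count then lost FOS. No member was above 0.5 in both, against 7.13% of all genes. In signal, EGR1 went from 13.1 log2 units in control SAS cells to 9.99 in si-LAMB3 cells, and from 12.6 to 10.3 in FaDu.

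Wogonin shared the low EGR1 and FOS in the same lines but not the low JUN. FOS was at -1.54 (software error 0.25) in FaDu and -1.02 (error 0.24) in SAS, and with normexp background correction at -1.42 and -0.63. EGR1 was at -0.80 and -1.54, so that 2 of 10 members were below -0.5 in both lines, against 4.19% of 13612 genes. JUN was at 0.017 in FaDu and 1.54 in SAS. Both treatments were measured on slide 2 alone, so slide and treatment cannot be told apart. The mean of the other treatments of the slide was then subtracted. FOS was then at -1.66 and -1.54 after si-LAMB3 and at -2.11 and -1.59 after wogonin, in FaDu and SAS. That mean holds FOS after miR-23b, miR-24 and miR-27b in PC3 (1.90, 1.24 and 2.01). Their controls were not well above background, so the shift to lower FOS values rests in part on dim signals. EGR1 was then at -2.25 and -3.15 after si-LAMB3 in FaDu and SAS. After wogonin EGR1 went from -1.54 to -1.04 in SAS, and in FaDu, where it had been at -0.80, it was no longer below -0.5. The mean subtracted there holds EGR1 after si-LAMB3 (-2.24 in FaDu and -3.14 in SAS) and EGR1 values of PC3 with dim controls. The shift of EGR1 after wogonin therefore rests in part on the si-LAMB3 arrays, and an effect of the slide was not tested.

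miR-145 in LNCap gave the highest values of EGR1, FOS and IER3 in the series. EGR1 was at 5.93 (software error 0.60) there, against 0.56 in DU145 and 1.5 in PC3, and its signal went from 5.84 to 11.8 log2 units. FOS was at 4.29 in LNCap, 0.18 in DU145 and 0.73 in PC3. In PC3 neither control signal was well above background. FOS was at least 1.45-fold higher there, and the 2.84-fold of EGR1 was that of its ratio, with no lower bound. JUNB, a Jun protein that can oppose JUN, was at 2.31 in LNCap, 1.68 in PC3 and 0.61 in DU145. EGR1 and JUNB were the 2 of 10 members above 0.5 in all 3 lines, against 3.36% of 12927 genes. With normexp background correction EGR1 in PC3 was at 0.33 and no member was above 0.5 in all 3 lines. In LNCap 6 of 10 members were above 1.0, namely EGR1, FOS, IER3, JUNB, FOSL2 and JUN, against 7.64% of 14397 genes. The median of the members there was 1.63, against -0.10 over all genes. On the same array SFN was at 3.66 and VIM at 1.65, while the prostate marker KLK3 was at -0.25. SFN is in the squamous list but was also high in the miR-145 controls of PC3 and DU145, at 5.41 and 6.65 above the 75th percentile. KRT5 of that list was at 0 in LNCap, and of its 6 markers 2 were well above background in control and 3 in treated cells. The part of these genes in the result was not tested.

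**Figure D2:**
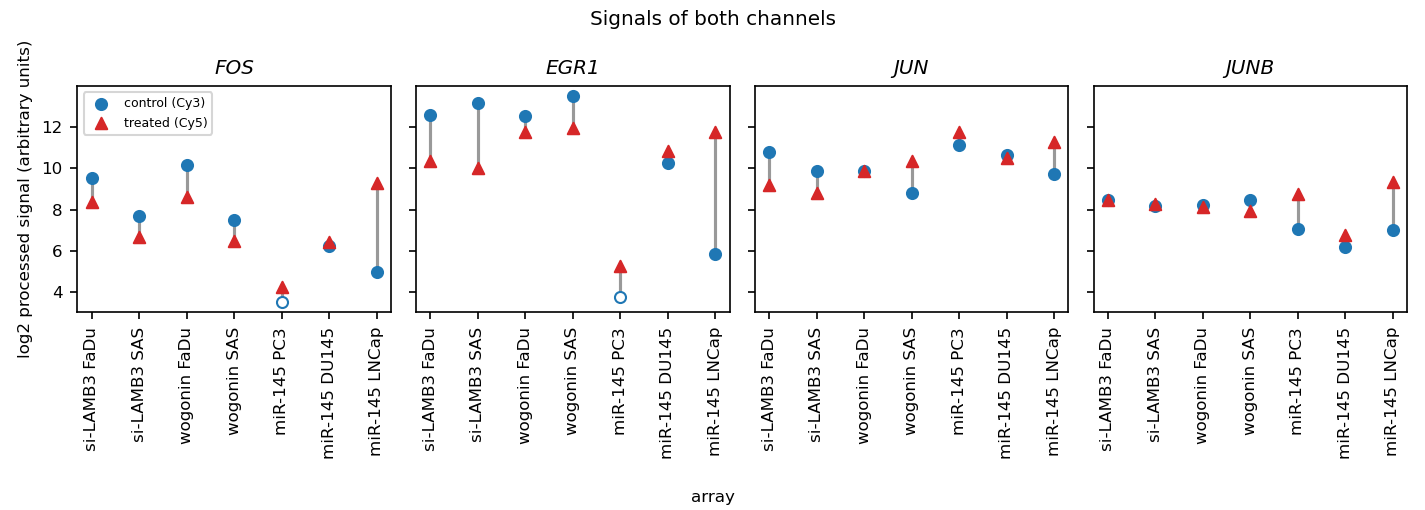
Log2 processed signal of FOS, EGR1, JUN and JUNB in control (blue circles, Cy3) and treated cells (red triangles, Cy5) of 7 arrays, with open symbols not well above background. EGR1 lay between 12.5 and 13.5 in the 4 squamous controls and at 5.84 in the LNCap control.

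Over the lines of a treatment, limma called 2 members, both after miR-145. JUNB rose by a mean of 1.54 (SE 0.37, 3 lines, limma adjusted p = 0.0386). IER2, a short-lived nuclear regulator, rose by 0.53 (SE 0.12, limma adjusted p = 0.0357), with 0.30 in DU145, 0.50 in PC3 and 0.78 in LNCap. By the same test 4.08% of 12926 genes rose and 4.05% fell. Both calls held without DU145 and were lost without any 1 of the other 6 lines, with an adjusted p from 0.0720 to 0.173 for JUNB and from 0.0523 to 0.187 for IER2. EGR1 averaged 2.66 (SE 0.83, limma adjusted p = 0.0860) and FOS 1.73 (SE 0.68, limma adjusted p = 0.150) after miR-145. After si-LAMB3, EGR1 averaged -2.69 (SE 1.03, limma adjusted p = 0.134), JUN -1.33 (SE 0.59, limma adjusted p = 0.191) and FOS -1.10 (SE 0.84, limma adjusted p = 0.434), where 5.32% of all genes fell. The test takes its spread from all treatments of the design that have several arrays, as a lone array leaves no residual. Without LNCap the limma adjusted p of EGR1 after si-LAMB3 was 0.00995. No member was called for the other treatments measured on several arrays. Of all genes 4.82% and 3.73% rose and fell by this test after genistein, 1.80% and 1.12% after wogonin, 0% and 0.125% after si-CAV2, 0.337% and 0.484% after miR-143, 0.735% and 1.16% after miR-27b in the renal lines, 0.279% and 0.401% after si-GOLM1 and 0.0416% and 0.0694% after CXCL10. The CXCL10 arrays were time points of a single renal line, so that test compared no lines and mixed time with replication. The difference between its times also entered the spread used for the other tests of slide 3. On slide 3, 4 of 38 mean ratios of members had an unadjusted limma p under 0.05, against 16.6% of those of all genes. None of these 4 passed adjustment. They were EGR1 after miR-143 (-0.38), JUN after miR-27b (-0.28), and JUN and IER2 after si-GOLM1 (-0.30 and -0.29).

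After genistein no member was above 1.0 in both PCa lines, against 1.90% of all genes, and differences between the lines were not tested. In PC3, JUNB was at 1.61 (software error 0.25) and JUND at 1.42 (error 0.25), against -0.26 and -0.0066 in DU145. In DU145, JUN was at 2.40 (error 0.30) and FOSL1, a Fos protein linked to invasion, at 1.74 (error 0.26), against -0.12 and -0.85 in PC3. FOS was at -1.07 and EGR1 at -1.11 in DU145, while in PC3 the FOS control and both EGR1 channels were not well above background. Above 1.0 were 2 of 9 tested members in PC3, against 9.39% of all genes, and 3 of 10 in DU145, against 5.63%. FOSB was the 1 member above 0.5 in both lines, against 8.20% of all genes, a count lost with normexp background correction. It was at 0.76 in PC3, at least 1.53-fold higher, and at 1.07 in DU145, where 2.11-fold was that of the ratio itself.

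After miR-375 in FaDu 5 of 10 members were above 1.0, against 10.6% of all genes. FOSL1 was at 2.72 (software error 0.32), IER3 at 1.94, EGR1 at 1.34, FOS at 1.28 and JUN at 1.08. FOSL2, another Fos-related protein, was on the other side at -1.19, against 13.3% of all genes below -1.0.

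In PC3, FOS and FOSB had log2 ratios above 1.0 after miR-23b, miR-24 and miR-27b, with control signals not well above background. FOS was at 1.90, 1.24 and 2.01 in that order, at least 1.76-fold, 1.57-fold and 1.73-fold higher. FOSB was at 2.16, 1.91 and 1.07, at least 4.20-fold higher after miR-23b and at least 1.84-fold after miR-27b. After miR-24 its 3.76-fold was that of the ratio itself. With normexp background correction the log2 ratios of FOS were 0.26, 0.16 and 0.41 and those of FOSB 0.46, 0.36 and 0.096, and FOSB after miR-27b turned to -0.055 when the slide mean was subtracted. The other Fos genes were not past 1.0, FOSL1 being at -0.60, -0.84 and 0.12 and FOSL2 at -0.61, 0.32 and -0.15. The control channels of these arrays correlated at 0.997 with each other and were taken as 1 control sample, so the ratios are not independent. JUND, measured in both channels, was at -1.84 (software error 0.29) after miR-24, its lowest value, and at -0.76 and -0.81 after miR-23b and miR-27b. On the miR-24 array 4 of 10 members were past 1.0, against 28.2% of all genes, and of these JUND alone was well above background in both channels.

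After si-LAMB3 and wogonin the ratios of FOSL1 and FOSB were higher in SAS than in FaDu, a difference that was not tested. FOSL1 was at 2.08 in SAS and 0.093 in FaDu after si-LAMB3, and at 1.39 and -0.59 after wogonin. FOSB was at 2.05 and -0.49 after si-LAMB3 and at 1.32 and -0.79 after wogonin. The FOSB control of SAS was not well above background. FOSB was 4.13-fold higher after si-LAMB3, the fold of the ratio itself, at least 1.40-fold after wogonin and at least 3.12-fold after miR-29a. The wogonin value of FOSB in SAS turned to -0.084 when the mean of the other treatments of the slide was subtracted, and with normexp background correction the 3 log2 ratios were 0.58, 0.13 and 0.31. JUN in SAS was at -1.17 (software error 0.23) after miR-29a, near its value after si-LAMB3.

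**Figure D3:**
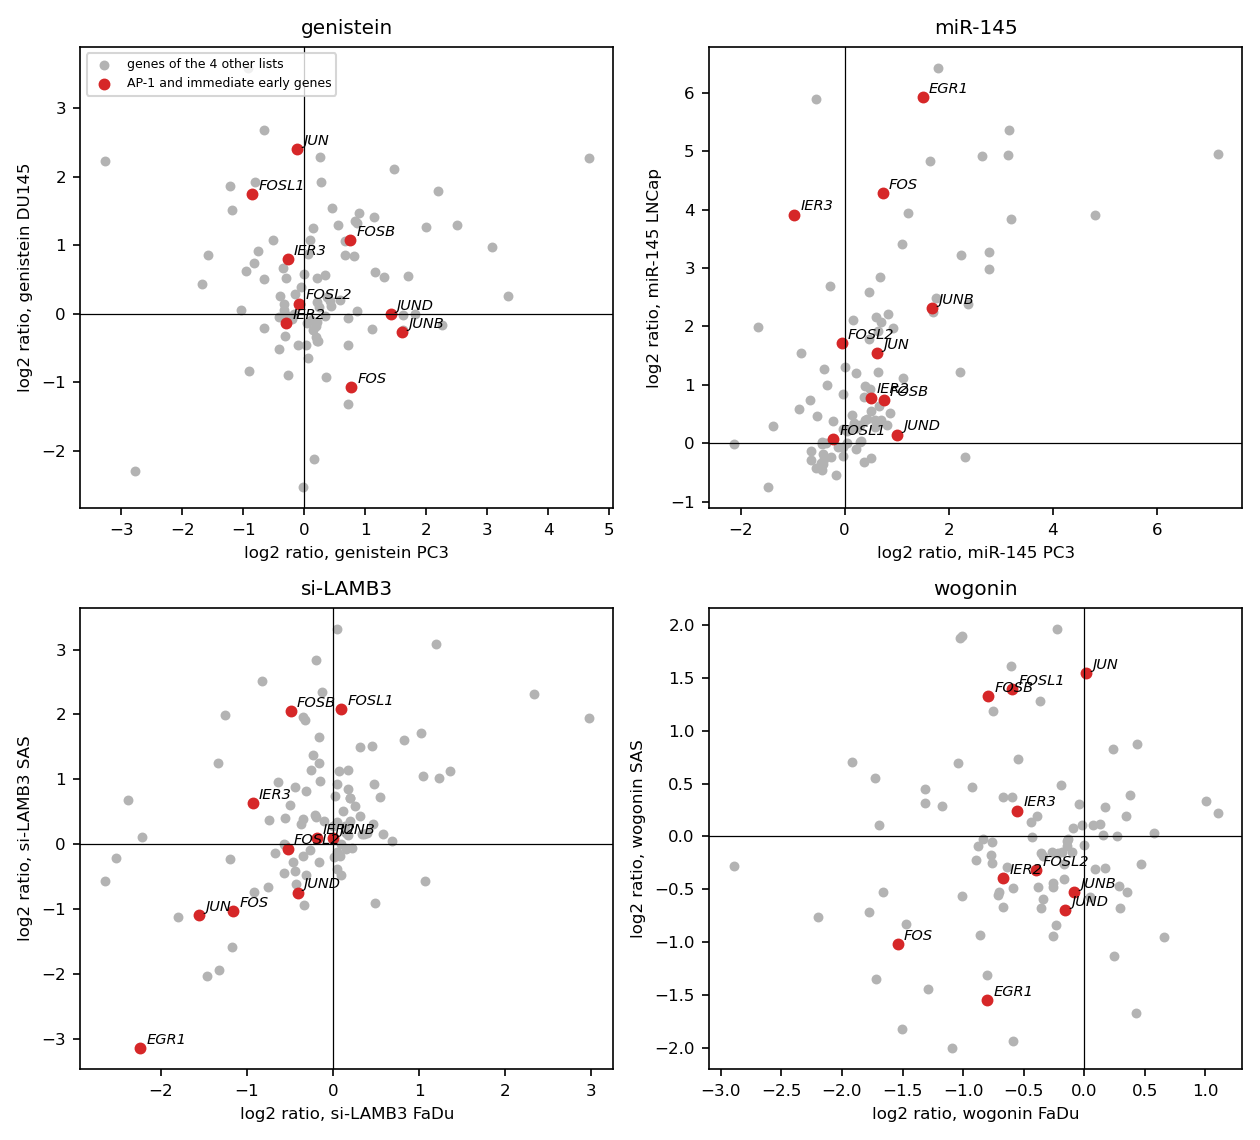
Log2 ratio in one cell line against another after genistein, miR-145 (PC3 and LNCap), si-LAMB3 and wogonin, with the 10 genes in red where tested in both lines and the genes of 4 related lists in grey. EGR1, FOS and JUN lie at the lower left after si-LAMB3 (EGR1 at -2.24 and -3.14), and FOSL1 lies on opposite sides of 0 in the lines treated with genistein or wogonin.

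IER3, an early gene that modulates survival, was at 3.92 after miR-145 in LNCap and at -0.97 after miR-145 in PC3. Its probes lie at chr6:30711312-30711371 and chr6:30711576-30711635 (hg19, minus strand) and differed by at most 0.228 on every array but LNCap, where the difference was 0.453. IER2 stayed between -0.67 and 0.78 on all 24 arrays. After si-CAV2, JUND was the 1 of 10 members below -0.5 in both renal lines (-0.58 in A498 and -0.59 in 786O), against 2.01% of all genes.

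On slide 3 none of 78 tested values of the members was past 1.0, against 2.16% of the values of all genes, and 5 were past 0.5, against 8.78%. The highest was FOSB after miR-27b in A498 (0.78, at least 1.62-fold). After si-GOLM1 in PC3, FOS and EGR1 were both at -0.59 and JUND at -0.54. EGR1 was at -0.12 after 12 hours of CXCL10 and -0.18 after 24 hours. Treatment, slide and array design cannot be told apart here.

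The wider AP-1 system was followed by 4 further gene lists. In the first design 20.1% of 259 tested values of other bZIP factors were past 1.0, as were 28.7% of 491 of other immediate early genes, 32.2% of 292 of reported AP-1 targets and 7.86% of 420 of upstream kinases and factors, against 11.9% over all genes. After miR-145, 3 of 16 other bZIP factors were above 1.0 in all 3 lines, against 1.76% of all genes. BATF2, a bZIP factor of the interferon response, was at 4.81, 4.37 and 3.91 in PC3, DU145 and LNCap. The stress-induced ATF3 was at 3.20, 1.10 and 3.84, and BATF, a lymphoid AP-1 protein, at 2.23, 2.05 and 3.22. Of the AP-1 targets 3 of 16 did so, the collagenase gene MMP13 (7.17, 5.38 and 4.95), the cytokine gene IL6 (3.14, 2.37 and 4.93) and PLAUR, the urokinase receptor (1.64, 1.13 and 4.83). KLF4 was the 1 of 28 other early genes that did so, at 2.65, 1.62 and 4.92. By limma 3 of 16 bZIP factors, 4 of 28 early genes and 3 of 16 targets rose after miR-145, against 4.08% of all genes. The bZIP factors called were BATF, BATF2 and MAFK, and ATF3 was not called. The early genes were KLF4, MCL1, NFKBIA and ZFP36, and the targets MMP13, IL6 and PLAUR. Of 26 upstream factors 1, the JNK gene MAPK8, fell, a share near the 4.05% of all genes.

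After si-LAMB3, 3 of 31 other early genes were below -1.0 in both lines and 2 were above 1.0, against 1.78% and 1.66% of all genes. EGR3, a paralogue of EGR1, was at -1.47 in FaDu and -2.04 in SAS, NAB2, a corepressor of EGR proteins, at -1.33 and -1.95, and the antiproliferative BTG2 at -1.18 and -1.59. CTGF, which encodes a matrix-associated protein, was at 1.20 and 3.09. Of 18 targets the 3 above 1.0 in both lines were HMOX1 (2.33 and 2.32), MMP1 (1.02 and 1.71) and TGM1 (1.36 and 1.12). By limma BTG2 fell, and BATF and HMOX1 rose, against 5.32% and 4.05% of all genes.

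Genistein had 5 of 30 other early genes above 1.0 in both PCa lines, against 1.90% of all genes, and none of the 9 tested members. PPP1R15A, which restores translation after stress, was at 2.19 in PC3 and 1.80 in DU145. DUSP1, a phosphatase of MAP kinases, was at 1.47 and 2.11, and ATF3 at 4.67 and 2.28. MAP2K6, the gene of a kinase that activates p38, was at -2.77 and -2.29 and fell by limma. It was the 1 of 26 upstream factors that did, a share near the 3.73% of all genes. By limma 2 of 15 other bZIP factors, ATF6 and JDP2, and 3 of 30 other early genes, BTG1, KLF2 and ZFP36L1, rose after genistein, against 4.82% of all genes. Wogonin had 3 of 29 other early genes below -1.0 in both squamous lines, against 0.999% of all genes. These were SGK1 (-1.09 in FaDu and -2.0 in SAS), GADD45B (-1.72 and -1.34) and the antiproliferative BTG1 (-1.29 and -1.44). By limma BTG1 alone of the 29 fell, against 1.12% of all genes. On slide 3 the lists had 4 limma calls, all lower. After miR-27b in the renal lines they were CYR61 and GEM of 27 early genes and MAP2K4 of 26 upstream factors, against 1.16% of all genes. After si-GOLM1 it was KLF2 of 28 early genes, against 0.401%.

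The levels of the genes were compared between the control cells of the lines. The level is the log2 control signal minus the 75th percentile of the array, compared between lines for the same probe. On slides 1 and 2 EGR1 was not well above background in any of 3 PC3 controls, and its level was 1.13 and 1.38 in DU145, 1.56 to 3.66 in FaDu and 1.65 to 4.17 in SAS, without overlap with PC3. By the means of the lines it was at least 122-fold higher in DU145, 369-fold in FaDu and 462-fold in SAS than in PC3. FOS, not well above background in PC3 either, was at least 8.07-fold higher in DU145, 52.2-fold in FaDu and 10.5-fold in SAS. FOSB was at least 9.36-fold higher in FaDu than in PC3 and 6.84-fold higher than in SAS. All these folds compare means of lines. Single controls could lie closer, with FOSB at -3.34 in the lowest FaDu control and -4.98 in the highest SAS control. These genes passed the filter only through the brighter line, so no p-value is given for them. FOS was measured in both FaDu and SAS and was higher in FaDu by 2.31 log2 units (SE 0.65, limma adjusted p = 0.0215). IER2 was higher in PC3 than in DU145 by 1.41 (SE 0.36, limma adjusted p = 0.0148), and FOSL1 higher in PC3 than in SAS by 2.26 (SE 0.80, limma adjusted p = 0.0407). Over the 6 pairs of PC3, DU145, FaDu and SAS 19 of 57 tests of a member passed, 8 of them with the dimmer line never well above background. These counts do not set the members apart from all genes. PC3 had 3 of 9 members called against DU145 (29.9% of all genes), 6 of 10 against FaDu (46.2%) and 4 of 9 against SAS (44.8%), DU145 had 3 of 10 against FaDu (30.8%) and 0 of 9 against SAS (31.0%), and FaDu had 3 of 10 against SAS (30.7%). EGR1 was not called between DU145, FaDu and SAS, with -1.92 (SE 0.78, limma adjusted p = 0.0878) for DU145 minus SAS.

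**Figure D4:**
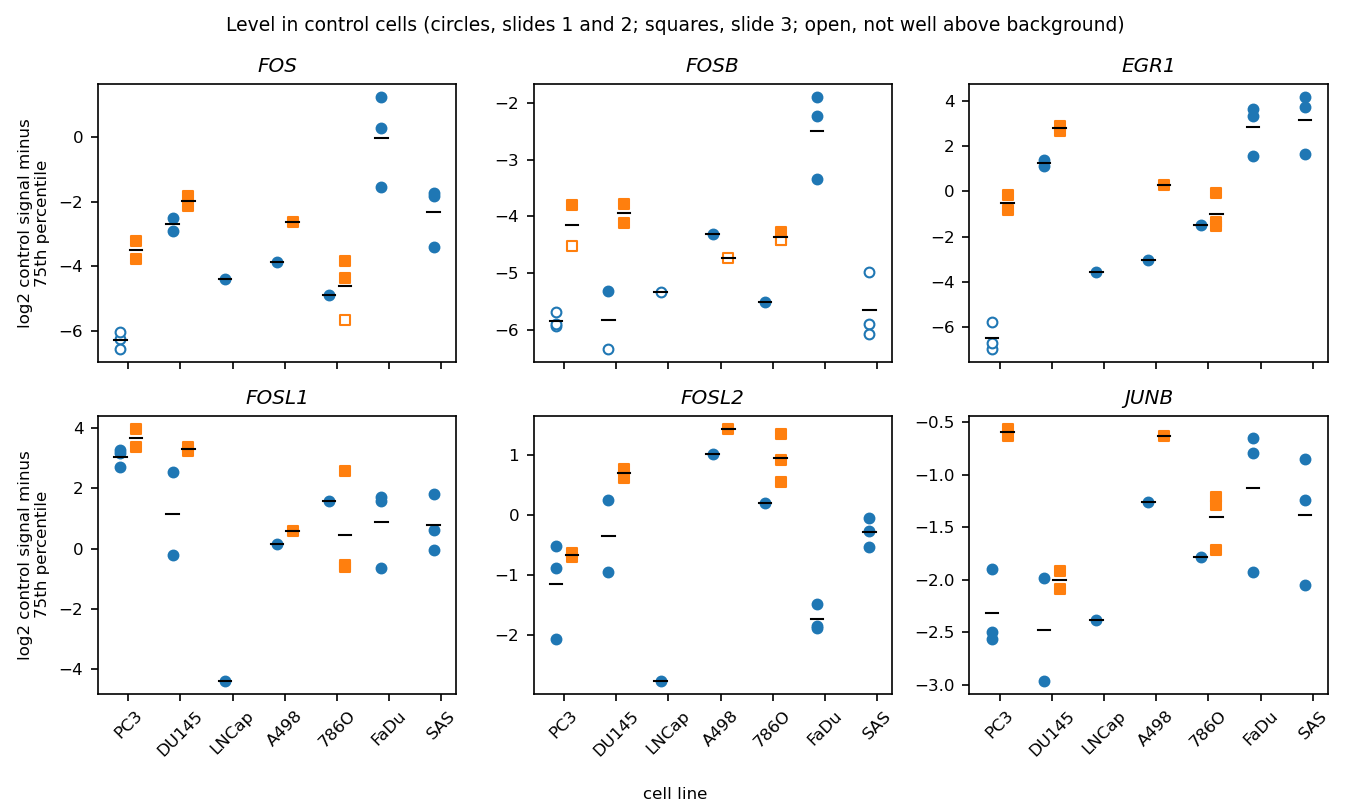
Log2 control signal minus the 75th percentile of the array for 6 genes in 7 cell lines, with 1 point per control sample, bars for means, blue circles for slides 1 and 2 and orange squares for slide 3. Open symbols were not well above background. EGR1 in PC3 had a mean of -6.49 on slides 1 and 2 and -0.49 on slide 3.

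On slide 3 EGR1 was well above background in both controls labelled PC3, at -0.81 and -0.18, and lower than in DU145 by a difference of -3.28 (SE 0.52, limma adjusted p = 0.00745). JUNB was higher in the cultures labelled PC3 than in DU145 by 1.41 (SE 0.24, limma adjusted p = 0.00879). Members passed in 10 of 29 tests, 3 of 10 between PC3 and DU145 (24.9% of all genes), 5 of 9 between PC3 and 786O (33.2%) and 2 of 10 between DU145 and 786O (32.1%). The calls numbered 20 without the miR-27b control of 786O and 3 to 5 without a DU145 or PC3 control. In 786O the FOSL1 level was 2.57 in the miR-27b control and -0.61 and -0.56 in the CXCL10 controls, which differ in how the controls were treated. In the single LNCap control FOSL1 was at -4.39 and IER3 at -4.04, each below every other control, with no test.

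FOS followed EGR1 across the first design, with a Pearson r of 0.94 over the 13 arrays where EGR1 was measured and 0.84 without LNCap. With the other members over 16 arrays, FOS had an r of 0.73 and 0.60 without LNCap for IER2, 0.63 and 0.36 without LNCap for JUNB, 0.63 and 0.20 without LNCap for IER3, 0.26 and 0.37 without LNCap for FOSB and 0.20 and -0.055 without LNCap for JUN. For FOSL2 the r was 0.50 and -0.11 without LNCap, for JUND 0.0255 and -0.11, and for FOSL1 -0.24 and -0.28. The genes nearest to EGR1 were CD70 (0.94 and 0.85 without LNCap), FOS and TIMP1 (0.89 and 0.70 without LNCap). Those nearest to FOS were DOCK11 (0.87 and 0.75 without LNCap), ERICH1 (0.86 and 0.72 without LNCap) and ST6GAL1 (0.84 and 0.69 without LNCap). Those nearest to JUN were CREB5 (0.91 and 0.90 without LNCap), TNC (0.82 and 0.79 without LNCap) and AP1S2 (0.81 and 0.78 without LNCap), and those nearest to FOSL1 were SLIRP, MRPL19 and RPE (0.91, 0.91 and 0.89, and 0.91, 0.91 and 0.91 without LNCap). These are descriptions, chosen as the highest among 11749 or 11750 genes, over arrays that share lines, slides and a PC3 control.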

How the data were processed

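RNA of 24 cell line samples was hybridised with its control on Agilent 2-colour arrays and read by the authors with Agilent Feature Extraction 10.7.3.1, per the labels. The deposited log10 ratios of Cy5 over Cy3 and the deposited processed signal intensities had been background-subtracted and dye-normalised by the authors. The deposited background flags are other values of 0 and 1, and the deposited value table equalled the ratios with a difference of 0. Ratios were turned into log2 by a factor of 3.3219, spots of a probe were averaged, and a gene took its brightest probe. The number of arrays limits the precision.

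Limma 3.58.1 in R 4.3.3 was fitted to the log2 ratios of all arrays of a design and to control levels. Benjamini-Hochberg adjustment was made over all tested probes. The units for the ratios were cell lines, except for CXCL10, where they were time points of a single line. The 3 controls of miR-23b, miR-24 and miR-27b in PC3 counted as 1. Whether cultures were separate is not stated, so p-values measure the spread between these samples. The scripts were tested on simulated data, where 48% of genes set to a log2 ratio of 1 and 87% of those set to 2 were recovered for si-LAMB3 among 11751 genes, and 11% and 55% for control levels of FaDu against SAS among 19819.

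The members and gene lists were chosen with earlier results of these data known. Beyond the members, genes are named where past 1.0 in all lines of a treatment, at most 4 per list and treatment, or among the 3 highest correlations with FOS, FOSL1, EGR1 or JUN. Genes named from limma calls alone, such as MAPK8, were chosen after their values were seen, and some genes of the lists are not reported here. Background correction, centring, filters, limits and left-out lines were varied.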

Additional observations from a re-analysis of the deposited data

Results flagged for a closer look

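For 6 pairs of gene and treatment the ratios of 2 cell lines lay on opposite sides of 0 and were both past 0.5 in size, and in none of them was the difference between the lines tested. After genistein, FOS was at 0.77 in PC3, where its control was not well above background, and -1.07 in DU145, and FOSL1 was at 1.74 in DU145 and -0.85 in PC3. IER3 was at 3.92 in LNCap and -0.97 in PC3 after miR-145, and at 0.63 in SAS and -0.93 in FaDu after si-LAMB3. After wogonin, FOSB was at 1.32 in SAS, where its control was not well above background, and -0.79 in FaDu, and FOSL1 was at 1.39 in SAS and -0.59 in FaDu.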

How the results depend on the processing

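Of the single-array values of the members past 1.0, 32 higher and 14 lower, normexp background correction left 16 and 8, no background correction 18 and 9, and subtracting the mean of the other treatments of the slide gave 21 and 28. Subtracting that of the design gave 24 lower values, asking for both channels above background 20 higher ones, and a limit of 0.5 39 lower ones. Leaving out the PC3 arrays of the first design, chosen after seeing the data, left 20 higher values. Of the 46, 24 stayed past 1.0 under normexp, and FOSB turned to -0.084 after wogonin in SAS and -0.055 after miR-27b in PC3 when the slide mean was subtracted. Members past 0.5 in all lines of a treatment were 3 higher and 6 lower. The higher count was 0 under normexp, 1 without background correction, 1 with both channels above background and 0 at a limit of 1.0, and the lower count 10 and 13 after subtracting the design and slide means. The counts of 53 bZIP, 143 early, 33 upstream and 97 target values past 1.0 became 26, 93, 15 and 64 under normexp and 119, 269, 104 and 183 at a limit of 0.5. The 2 higher limma calls became 0 with no filter on dim probes and 0 with the treatment's own arrays alone, and the lower calls went from 0 to 1 after subtracting the slide mean. With each cell line left out they ranged from 0 to 4 higher and 0 to 1 lower, a lone array being assumed to vary like the others. The 4 without FaDu were FOSB after genistein, miR-145, si-LAMB3 and wogonin. Calls between control levels ranged from 13 to 19 on the first design and 3 to 20 on the second, with 20 without the miR-27b control of 786O and 3 without either PC3 control. The causes were not tested. No paired analysis was possible because each group was 1 array, on which treated and control cells were already set against each other. Dim control channels limit FOS, FOSB and EGR1 in PC3 and FOSB in SAS.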
